A study of Mus musculus with 161 samples.

Results

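Unstimulated (M0) bone marrow-derived macrophages that had stayed for 24 h in base medium were described here cell by cell, from 1 droplet library of 2727 barcodes, out of 22881 barcodes in the 7 single-cell libraries of the study. Every barcode of the 24 h M0 library was taken, with none removed. It was set beside the 6 h M0 library of 2446 barcodes and the 0 h M0 library of 5985 barcodes. In all 3 groups, marrow of C57BL/6J mice aged 6 to 10 weeks was grown in RPMI-1640 with horse serum (20%) and M-CSF, macrophage colony-stimulating factor, at 20 ng/mL. Day 7 of that culture was called 0 h, and M0 cells then stayed in the same medium, without the lipopolysaccharide, interferon-γ or interleukin-4 given to the M1 and M2 cells of the study. By the study's methods the single-cell libraries came from 1 replicate, so that differences between them carry no replicate error. The study also holds bulk RNA-seq of M0 cells, with 3 libraries at 24 h and 3 at 0 h labelled as biological replicates, and these gave the only tests below.

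M-CSF is the growth and survival factor of the macrophage lineage. It acts through the receptor Csf1r, carries marrow precursors to adherent macrophages that take up particles, and keeps a share of them dividing. Such cells carry the scavenger and Fc receptors, complement C1q, lysozyme and lysosomal enzymes of resting macrophages, without the cytokines that follow contact with microbes. Cells that pass through the cycle make transcripts of the replication machinery in S phase and then those of chromosome segregation in G2 and mitosis, which makes transcript lists of the 2 phases a way to read proliferation from single cells.

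The values are unique molecular identifiers (UMIs), each standing for 1 captured transcript, and levels are given as CPM, the UMIs of a gene over all barcodes of a library scaled to a library total of 1000000, with exact 95% Poisson intervals. These intervals cover counting error only. The 24 h M0 barcodes held a median of 1751 UMIs (697 to 17249) and 806 genes, against 1999.5 UMIs and 935.5 genes at 6 h and 1025 UMIs and 564 genes at 0 h. Shares of barcodes are therefore given after each barcode was thinned to 500 UMIs, which left out 400 barcodes of the 0 h library and none of the others. Mitochondrial transcripts took 1.09% of UMIs at 24 h, against 1.48% at 6 h and 1.95% at 0 h. The 24 h library shared 9 barcode sequences with the 6 h library and 23 with the 0 h library.

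The label was checked against markers of 12 cell types. Macrophage markers (9 genes, all with UMIs) summed to 22125 CPM at 24 h, against 14465 at 6 h and 21032 at 0 h, and 2451 of 2727 barcodes at 24 h held UMIs of at least 3 of them. Csf1r stood at 733.9 CPM, Adgre1 (F4/80) at 384.9 and Lyz2 (lysozyme) at 17056. By the same count of 3 genes, neutrophil markers marked 0 barcodes (which allows a share of up to 0.135% by the exact interval), monocyte markers 2, dendritic cell markers 1 and osteoclast markers 11. Of the 12 neutrophil and precursor markers 7 were at 0, and 400 of the 454 UMIs of that list belonged to Mmp8. No barcode held 3 genes of the fibroblast, B cell, T and NK cell, erythroid, mast cell, megakaryocyte or endothelial lists, each of which summed to between 0.175 and 16.9 CPM. Because almost every barcode carried macrophage transcripts, no cell type of the library could serve to measure free RNA, and shares of barcodes with a UMI may include it.

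A total of 83 of 2657 genes (3.12%) stood at least 2-fold higher at 24 h than at 0 h and 88 (3.31%) at least 2-fold lower, counting genes with at least 50 CPM in 1 of the 2 libraries. Against 6 h, 175 of 2811 genes (6.23%) were at least 2-fold higher and 274 (9.75%) at least 2-fold lower. The 2 comparisons share the 24 h library. The median log2 ratio over all these genes was −0.03 against 0 h and −0.11 against 6 h, and 68.6% of genes lay within 0.5 log2 units of no difference against 0 h and 55.2% against 6 h. Among the higher transcripts were a secreted selenoprotein, Fc receptors and Ms4a membrane proteins. Among the lower ones were the monocyte chemokines Ccl2 and Ccl7, the regulator Id3 and 7 genes of the S phase list.

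Sepp1, which encodes selenoprotein P, a secreted carrier of selenium, stood at 2569 CPM at 24 h (interval 2528 to 2611), against 262.5 at 6 h and 623.7 at 0 h. These are ratios of 9.75-fold over 6 h and 4.11-fold over 0 h. After thinning, 61.0% of barcodes held a Sepp1 UMI at 24 h, against 9.98% at 6 h and 25.2% at 0 h. Among barcodes with no UMI of the cell cycle lists, the log2 ratio of Sepp1 was 3.49 against 6 h and 1.99 against 0 h.

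**Figure D1:**
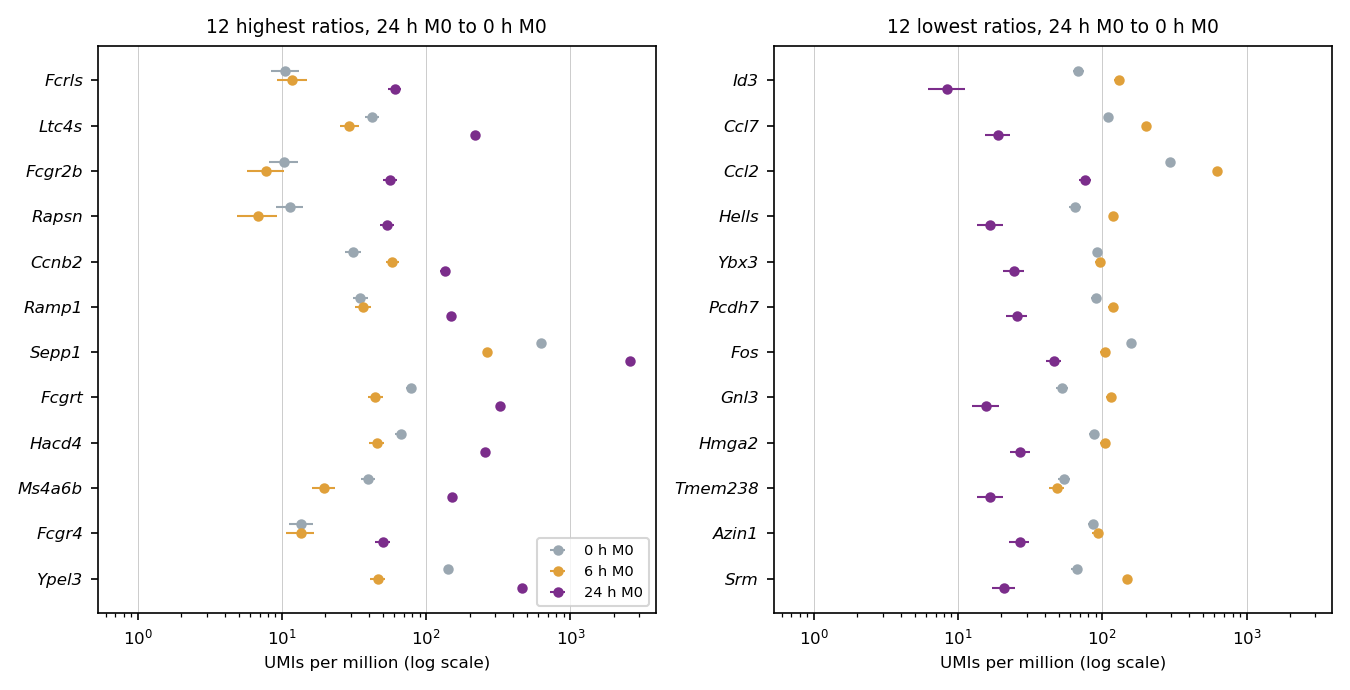
Levels of the 12 genes with the highest and the 12 with the lowest ratio of 24 h M0 to 0 h M0, in CPM on a log axis, at 0, 6 and 24 h, with 1 library per time and exact 95% Poisson intervals as bars. Sepp1 stands at 2569 at 24 h, against 262.5 at 6 h and 623.7 at 0 h, and Id3 at 8.38 at 24 h, against 129.8 at 6 h and 68.4 at 0 h.

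Receptors that bind the Fc part of IgG were not all on 1 side. Fcgr2b, the inhibitory Fc receptor, was at 56.2 CPM at 24 h, against 7.80 at 6 h and 10.3 at 0 h. Fcgr4, an activating receptor, was at 50.1, against 13.4 at 6 h and 13.6 at 0 h, and Fcgr3, another activating receptor, at 862.3, against 256.0 and 340.4. Fcgrt, the neonatal Fc receptor that recycles IgG inside cells, was at 325.7, against 44.3 at 6 h and 79.0 at 0 h. Fcgr1, the high-affinity receptor, ran the other way with 54.3 CPM at 24 h, against 65.8 at 6 h and 83.0 at 0 h. Fcrls, a scavenger receptor-like relative of the Fc receptors, was at 60.4, against 11.8 and 10.6, a ratio of 5.31 over 0 h that was the highest of all genes with 50 CPM in 1 of the 2 libraries outside predicted, ribosomal and mitochondrial genes. In the bulk test of 24 h against 0 h, the log2 fold change of Fcgr3 was 0.13 ± 0.16 (SE, limma adjusted p = 0.83). That of Fcgr1 was −0.01 ± 0.44.

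Membrane proteins of the Ms4a family, which are relatives of CD20, were higher at 24 h in the 3 members looked at. Ms4a6b was at 150.9 CPM, against 19.6 at 6 h and 39.5 at 0 h, Ms4a6d at 211.7, against 75.2 and 89.9, and Ms4a7 at 1521, against 630.4 and 540.1. Ms4a6d and Ms4a7 were picked after their values had been seen. Ltc4s, the synthase that makes leukotriene C4, was at 218.7, against 29.4 at 6 h and 42.1 at 0 h. Itm2b, a membrane protein among the 15 transcripts with most UMIs in the 24 h library, was at 5110, against 1818 and 2214. Its UMIs were found in 85.2% of thinned barcodes at 24 h, against 49.0% at 6 h and 57.6% at 0 h.

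Several of the transcripts with the highest ratios against 6 h lay between at 0 h. Ypel3, a small protein tied to growth arrest, was at 463.2 CPM at 24 h, against 46.0 at 6 h and 140.5 at 0 h. Mxd4, a partner of Max that opposes Myc, was at 147.4, against 17.3 and 57.9. Slc40a1, the iron exporter ferroportin, was at 52.9, against 4.82 and 17.2. Apoe, Pltp and Abca1, of the LXR and cholesterol efflux list, had the same order. Apoe was at 11284, against 5256 at 6 h and 8762 at 0 h, Pltp, a phospholipid transfer protein, at 292.0, against 74.4 and 131.2, and the cholesterol exporter Abca1 at 30.2, against 4.48 and 11.4. The 6 h library was the low one for each of these 6 genes. Of the 4 genes of that list with 50 CPM in 1 of the 2 libraries, 1 (Pltp) was at least 2-fold higher than at 0 h and 0 lower (median log2 ratio 0.71). Abca1 lies under 50 CPM, and Nr1h3, which encodes LXRα itself, ran the other way at 4.72 CPM at 24 h, against 12.0 at 6 h and 8.59 at 0 h. In bulk, 6 of the 11 members lay above 0 at 24 h (median log2 fold change 0.11), with Apoe at −0.24 ± 0.39 and Pltp at −0.13 ± 0.60 (SE). The 3 chains of C1q, which opens the classical complement pathway, also had their lowest level at 6 h, with C1qa at 490.1, against 150.1 at 6 h and 277.6 at 0 h. In bulk, 24 h against 0 h, the log2 fold changes of C1qa, C1qb and C1qc were 0.05 ± 0.68, 0.07 ± 0.49 and 0.32 ± 0.50 (SE).

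The lower transcripts were led by small regulators and chemokines. Id3, which blocks helix-loop-helix factors, was at 8.38 CPM at 24 h (6.18 to 11.1), against 129.8 at 6 h and 68.4 at 0 h, or 13.9-fold and 7.40-fold lower. Its relative Id1, under 50 CPM at 24 h and 0 h, was at 3.14, against 108.3 at 6 h and 40.0 at 0 h. Ccl2, the main chemoattractant of monocytes, was at 75.98, against 627.0 at 6 h and 292.6 at 0 h, and Ccl7, which acts on the same receptor, at 18.9, against 200.6 and 110.3. Ccl2 UMIs were found in 1.61% of thinned barcodes at 24 h, against 16.03% at 6 h and 7.11% at 0 h.

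Gnl3, Nolc1 and Srm were also lower at 24 h, Nolc1 at a level under 50 CPM at 24 h and 0 h. Gnl3 (nucleostemin) was at 15.5 CPM, against 114.7 at 6 h and 52.6 at 0 h, Nolc1, a nucleolar phosphoprotein, at 11.2, against 67.6 and 33.9, and Srm, the spermidine synthase, at 20.8, against 148.3 and 66.8. Fos, an immediate early factor, was at 45.9 at 24 h, against 105.3 at 6 h and 157.1 at 0 h. Lpl, the lipase that frees fatty acids from lipoproteins, was at 758.6, against 1865 at 6 h and 1814 at 0 h, and the fatty acid receptor Cd36 at 457.4, against 700.7 and 969.3.

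Gene lists gave the wider picture, each read against the 3.12% of genes at least 2-fold higher and 3.31% lower than at 0 h. Of 21 core macrophage genes with 50 CPM in 1 of the 2 libraries, 1 (Fcgr3) was 2-fold higher than at 0 h and 0 lower, with a median log2 ratio of 0.29. The lysosome list held 22 such genes, of which 1 was higher and 0 lower (median 0.40). The resident-like macrophage list held 9, of which Sepp1 and Fcrls were higher and 0 lower (median 0.49). Of 10 genes of lipid uptake and storage, 3 were lower and 0 higher (median −0.35), and of 8 cytokines and chemokines 2 were lower and 0 higher (median −0.35). Of 12 chaperones 1 was lower and 0 higher (median −0.54), of 7 glycolysis genes 0 were higher or lower (median −0.41), and of 22 genes of oxidative phosphorylation 0 were higher or lower (median 0.00). In the bulk test of 24 h against 0 h, the lipid uptake and storage list had a median log2 fold change of 0.01. Of its 14 genes, 7 lay above 0. The resident-like list had a median of 0.03, with 7 of 14 above 0. The cytokine and chemokine list had −0.37, with 5 of 23 above 0, and the glycolysis list −0.31, with 0 of 23. Core macrophage, lysosome and chaperone lists had 0.07, 0.11 and −0.17, against 0.02 over all genes. The cholesterol synthesis list had 0.37 in bulk, with 21 of 22 genes above 0, while its 6 genes with 50 CPM in the single cells had a median of −0.07. Of that list Sc4mol alone passed the bulk test, and in 2 of the 6 fits that left out 1 library. The immediate early list had −0.73 in bulk, with 1 of 22 above 0, and −0.25 for 11 genes in the single cells.

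Cytokine response genes were few. The 15 genes of the M1 effector list summed to 26.9 CPM at 24 h, against 46.5 at 6 h and 44.8 at 0 h, and none reached 50. Of the interleukin-4 response list, Mrc1, the mannose receptor, alone reached 50, with 207.7 CPM at 24 h, against 56.3 at 6 h and 164.7 at 0 h. Of 8 interferon-stimulated genes with 50 CPM in 1 library, 0 were 2-fold higher or lower than at 0 h (median 0.12), and Ifi27l2a stood at 2286 CPM, against 1397 at 6 h and 1357 at 0 h.

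Transcripts of S phase and of G2 and mitosis parted at 24 h. The 34 genes of the S phase list summed to 906.7 CPM, against 2798 at 6 h and 1946 at 0 h, while the 49 genes of the G2 and M phase list summed to 3342, against 3416 and 2124. Of 12 S phase genes with 50 CPM in 1 of the 2 libraries, 7 were at least 2-fold lower than at 0 h and 0 higher (median log2 ratio −1.08). Against 6 h, 19 of 21 were lower (median −1.68). Of 16 G2 and M phase genes, 5 were at least 2-fold higher than at 0 h and 0 lower, and 14 lay above 0 (median 0.67). Against 6 h, 2 of 20 were higher and 1 lower (median −0.34).

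The named members show the same parting. Mcm5 and Mcm6 are subunits of the helicase that opens DNA for replication. Mcm5 was at 21.3 CPM at 24 h, against 93.8 at 6 h and 67.9 at 0 h, and Mcm6 at 50.5, against 200.6 and 155.5. Pcna, the sliding clamp of DNA polymerase, was at 116.8, against 375.7 and 322.2. Ccnb2, the cyclin B2 of mitotic entry, was at 134.0, against 58.3 at 6 h and 31.2 at 0 h, and Cenpa, the histone that marks centromeres, at 261.5, against 108.4 and 81.5. Ube2c, the ubiquitin conjugator that helps cells leave mitosis, was at 265.7, against 235.8 and 102.5. Not all mitotic genes were high at 24 h, since Top2a, the topoisomerase that untangles sister chromosomes, was at 102.5, against 175.8 at 6 h and 123.8 at 0 h. Mcm5, Mcm6, Pcna and Top2a were picked after their values had been seen.

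To show how the start regions of the 2 lists differ in motifs, those of Ccnb2 and Cenpa, higher at 24 h, and of Mcm5 and Mcm6, lower at 24 h, are given as examples, chosen after their values and motifs had been seen, from RefSeq on build GRCm38.p6, from 250 bases before to 50 after the annotated start, 5′ to 3′ on the gene's strand. Capitals mark the 3 motifs searched on both strands, which are CHR (TTTGAA), the cell cycle homology element of late cycle promoters, the CCAAT box (CCAAT), and an E2F motif written as TTTGGCG or TTTCGCG.
Ccnb2 at chr9:70421505-70421804, minus strand: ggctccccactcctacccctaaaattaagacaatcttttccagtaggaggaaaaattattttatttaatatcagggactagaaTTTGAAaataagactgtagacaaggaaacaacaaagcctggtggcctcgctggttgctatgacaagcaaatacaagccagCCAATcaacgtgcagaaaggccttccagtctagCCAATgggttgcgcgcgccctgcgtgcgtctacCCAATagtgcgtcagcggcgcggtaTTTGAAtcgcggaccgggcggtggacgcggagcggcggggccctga
Cenpa at chr5:30666636-30666935, plus strand: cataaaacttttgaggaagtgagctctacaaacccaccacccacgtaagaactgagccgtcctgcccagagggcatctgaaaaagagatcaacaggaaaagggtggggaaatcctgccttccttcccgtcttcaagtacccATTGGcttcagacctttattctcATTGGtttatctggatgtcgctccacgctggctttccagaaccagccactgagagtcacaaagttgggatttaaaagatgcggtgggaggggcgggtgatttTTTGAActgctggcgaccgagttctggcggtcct
Mcm5 at chr8:75109259-75109558, plus strand: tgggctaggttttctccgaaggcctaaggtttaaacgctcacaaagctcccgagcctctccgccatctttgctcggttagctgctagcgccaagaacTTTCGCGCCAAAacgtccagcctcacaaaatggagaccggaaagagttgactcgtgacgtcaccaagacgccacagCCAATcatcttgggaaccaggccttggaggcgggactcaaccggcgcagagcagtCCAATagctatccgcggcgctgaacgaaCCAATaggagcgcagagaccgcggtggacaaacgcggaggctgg
Mcm6 at chr1:128359656-128359955, minus strand: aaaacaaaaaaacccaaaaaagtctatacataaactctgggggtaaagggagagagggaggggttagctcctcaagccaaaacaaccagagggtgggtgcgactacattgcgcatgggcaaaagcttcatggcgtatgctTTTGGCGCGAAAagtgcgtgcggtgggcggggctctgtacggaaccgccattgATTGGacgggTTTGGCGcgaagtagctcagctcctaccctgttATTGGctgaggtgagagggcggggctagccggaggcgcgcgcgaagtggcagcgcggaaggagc
The Ccnb2 window holds 2 CHR letters and 3 CCAAT boxes, and that of Cenpa 1 CHR and 2 CCAAT boxes, with no E2F motif in either. The windows of Mcm5 and Mcm6 hold no CHR, but 3 and 2 CCAAT boxes and 2 and 3 E2F motifs, of which 2 overlap in each gene. S phase windows varied, since that of Pcna holds 1 CCAAT box and no E2F motif and that of Hells 1 E2F motif and no CCAAT box.

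Over the lists, 41 of 49 G2 and M phase genes and 28 of 34 S phase genes were matched to a RefSeq window. CHR was found in 30 of 41 G2 and M phase windows (73.2%), against 3 of 28 S phase windows (10.7%) and 18.1% of all 27025 windows. The E2F motif was found in 3 of 41 G2 and M phase windows (7.32%) and 9 of 28 S phase windows (32.1%), against 2.39% of all. The CCAAT box was common to both lists, in 30 of 41 (73.2%) and 18 of 28 windows (64.3%), against 37.9% of all. These are matches of letters, and binding was not measured here.

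Counted per barcode, 210 of 2727 barcodes (7.70%, exact Clopper-Pearson interval 6.73 to 8.77) held at least 2 UMIs of the S phase list at 24 h after thinning, against 38.9% at 6 h and 23.9% at 0 h. For the G2 and M phase list, without 4 members that resting cells also hold (Hmgb2, H2afz, Tubb4b and Smc4), the share was 540 of 2727 (19.8%, 18.3 to 21.3), against 25.7% at 6 h and 14.9% at 0 h. Without thinning these mitosis shares were 37.6% at 24 h, against 50.9% and 24.2%, and the S phase shares 28.8%, against 83.6% and 45.1%. Thinned to 1000 UMIs, the mitosis share was 28.9% at 24 h, against 37.9% at 6 h and 24.5% at 0 h. Of the barcodes with mitosis transcripts, 19.1% also held 2 S phase UMIs at 24 h (15.8 to 22.6, 103 of 540), against 46.9% at 6 h and 47.8% at 0 h. Barcodes with no UMI of either list made up 52.6% at 24 h, against 21.7% at 6 h and 41.2% at 0 h.

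**Figure D2:**
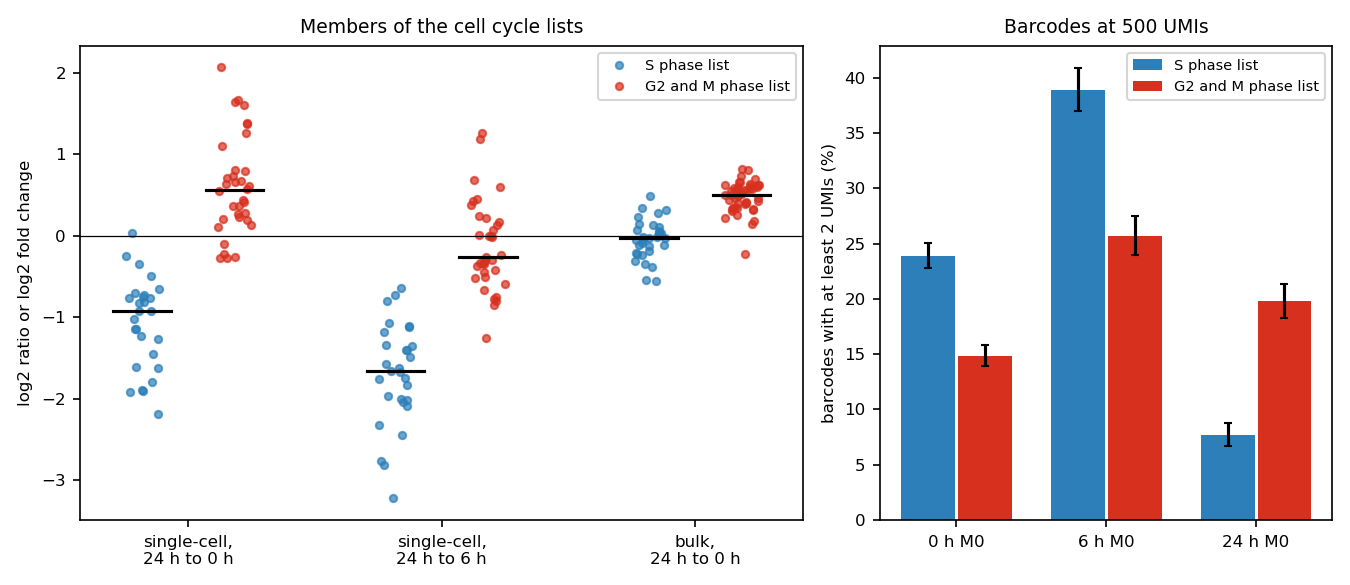
Left, log2 ratios of S phase and of G2 and M phase genes in the 2 single-cell comparisons and log2 fold changes in the bulk test, 1 point per gene and the median as a line. Single-cell points are genes with at least 20 CPM in 1 of the 2 libraries. Right, percent of barcodes with at least 2 UMIs of each list after thinning to 500 UMIs at 0, 6 and 24 h, with exact 95% intervals. The S phase share is 7.70% at 24 h, against 38.9% at 6 h and 23.9% at 0 h, while the mitosis share is 19.8%, against 25.7% and 14.9%.

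Since the share of barcodes with UMIs of the cycle lists differed between libraries, the counts were repeated in the barcodes with no UMI of either list, a choice made after the values were seen. Among these, 76 genes were at least 2-fold higher than at 0 h, of which 61 were among the 83, and 97 were lower, of which 65 were among the 88. Against 6 h, 188 were higher and 282 lower, with 133 and 201 shared with the counts over all barcodes. Id3 had a log2 ratio of −3.88 against 6 h and −2.60 against 0 h in these barcodes, and Ccl2 one of −3.39 and −2.16. These genes are examples. Not every gene counted over all barcodes was counted again here, as the shared counts show.

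Within the 24 h library, the 540 barcodes with mitosis transcripts held less of several macrophage transcripts than the 1435 with no UMI of either list. Sepp1 was at 1422 CPM in them, against 3005 in the others, Adgre1 at 174.1, against 407.0, and Apoe at 8252, against 13190. Lyz2 was at 12315, against 19299, and Ypel3 at 311.1, against 526.8. Ly6e and Arl4c stood higher in the barcodes with mitosis transcripts, with 574.1 and 207.4, against 372.1 and 132.4. The log2 ratio of Sepp1 between such barcodes was −1.08 at 24 h, against −0.35 at 6 h and −1.35 at 0 h. UMIs of the cycle lists themselves take up part of the 500 kept in each barcode, at a median of 3 mitosis UMIs per barcode with mitosis transcripts.

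The bulk libraries of M0 cells asked the 24 h against 0 h question with replicates. Of 8307 genes, 52 (0.626%) rose and 84 (1.01%) fell at 24 h by limma on log2(FPKM + 1), with Benjamini-Hochberg adjusted p under 0.05, or 136 genes in all (1.64%), where FPKM is fragments scaled to transcript length and to the mapped fragments of the library. With the replicate number as a block, in the 6 M0 libraries alone, 38 rose and 71 fell, of which 6 and 48 were among the 52 and 84. In the same 6 libraries without the block, 1 rose and 20 fell, of which 0 and 19 were among the 52 and 84. The 52 and 84 calls use a spread shared over all 145 bulk libraries, most of them of cytokine-treated cells. The calls moved with single libraries: without library 1 at 24 h 14 genes rose and 31 fell, and without library 2 at 24 h 13 rose and 43 fell. Without library 3 at 24 h 49 rose and 128 fell. Without library 1 at 0 h 25 rose and 65 fell, without library 2 at 0 h 67 rose and 99 fell, and without library 3 at 0 h 19 rose and 50 fell.

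Most genes past 2-fold in the single cells lay on the same side of 0 in bulk, but few passed the test. Of the 83 higher genes 76 were in the bulk table, 59 lay above 0 (median log2 fold change 0.20) and 2 passed, namely Cenpf and Ms4a6d. Of the 88 lower genes 86 were in the table, 69 lay below 0 (median −0.24) and 6 passed, namely Noc2l, Mthfd2, Ybx3, Ier2, Gnl3 and Hnrnpab. With the block 4 of the 86 passed, Ccl2 among them, and Noc2l, Ier2 and Gnl3 did not (adjusted p = 0.074, 0.28 and 0.066 by limma). In the 6 fits without 1 library, Hnrnpab and Mthfd2 passed in 1, Gnl3 and Ybx3 in 2 and Noc2l and Ier2 in 3, with adjusted p up to 0.27, 0.14, 0.36, 0.098, 0.35 and 0.75 in that order. Over all 2657 genes, 2554 were in the table, 56.0% lay above 0 (median 0.03), 21 rose and 14 fell. Whether the bulk and single-cell cultures were grown together is not given in the sources used here.

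Single genes differed in how far the 2 assays matched. Ms4a6d had 118.0, 114.4 and 105.3 FPKM at 24 h, against 81.3, 79.8 and 71.4 FPKM at 0 h. The groups did not overlap, as was so for 10.3% of all genes in the higher direction, and the log2 fold change was 0.53 ± 0.14 (SE, limma adjusted p = 0.031, or 0.043 with the block). It passed in 2 of 6 fits that left out 1 library, without library 3 at 24 h or library 2 at 0 h, and its log2 fold change in the 6 ran between 0.48 and 0.58. Sepp1 had 2504, 2777 and 2611 FPKM at 24 h, against 1931, 2353 and 2266 FPKM at 0 h. All 24 h values lay above all 0 h values, but the fold change was 0.27 ± 0.46 on the log2 scale (limma adjusted p = 0.88, or 0.19 with the block), far from the 4.11-fold ratio of the single cells. Ypel3 had 116.0, 96.3 and 102.9 FPKM, against 92.6, 86.3 and 108.8 FPKM, and Itm2b 1723, 1585 and 1704 FPKM, against 1616, 1466 and 1673 FPKM. For both the groups overlapped.

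Ccl2 had 39.0, 85.9 and 76.1 FPKM at 24 h, against 94.7, 204.0 and 120.3 FPKM at 0 h. The 24 h libraries were all below those of 0 h, with a log2 fold change of −1.05 ± 0.35 (limma adjusted p = 0.12), and the block brought it past the threshold (adjusted p = 0.046). Id3 was low in bulk, at 2.67, 1.76 and 1.43 FPKM, against 0.520, 2.86 and 1.18 FPKM, and the groups overlapped. Ybx3, a cold shock domain protein that binds RNA, had 27.5, 29.2 and 29.6 FPKM, against 52.7, 42.7 and 47.8 FPKM, and fell by 0.71 ± 0.18 on the log2 scale (limma adjusted p = 0.016, or 0.048 with the block). It passed in 2 of the 6 fits without 1 library, and not without library 1 or 2 at 24 h or library 1 or 3 at 0 h (adjusted p up to 0.098). Nolc1 had 7.84, 8.43 and 12.2 FPKM, against 16.2, 14.5 and 17.3 FPKM, and fell by 0.71 ± 0.14 (limma adjusted p = 0.00049). It passed in all 6 fits without 1 library, while the block gave an adjusted p of 0.065.

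**Figure D3:**
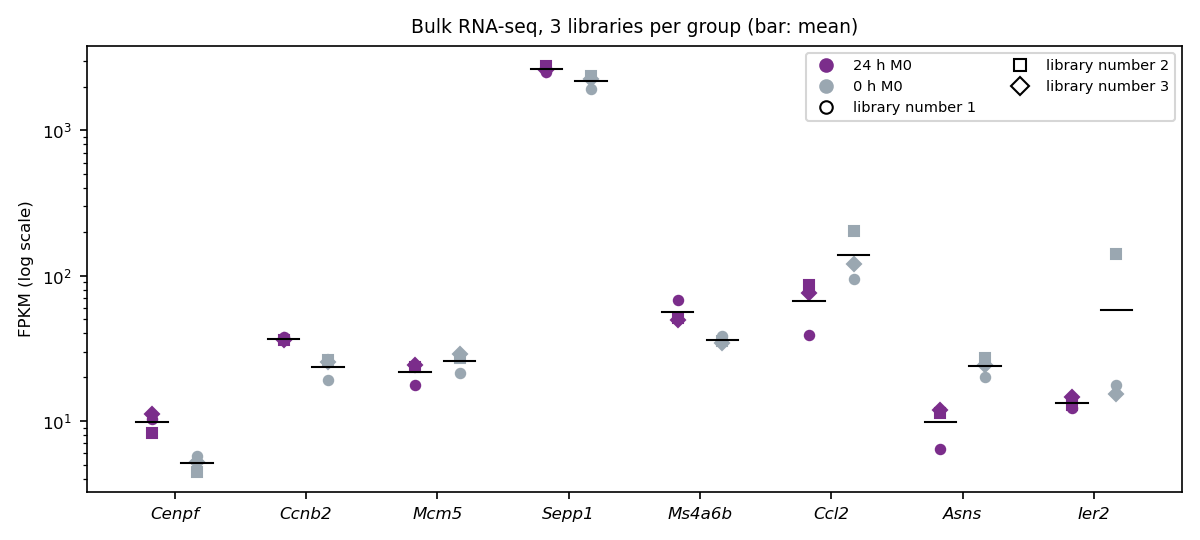
FPKM of 8 genes in each bulk library of M0 cells, 24 h left of 0 h, on a log axis, with the marker showing the library number and a line at the mean. Ms4a6b, Cenpf, Ccnb2 and Sepp1 lie higher at 24 h in all 3 libraries, Asns lies between 6.39 and 11.9 at 24 h, against 19.9 to 27.3 at 0 h, and the 0 h value of Ier2 in library 2 (141.4) stands far above the others.

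The cell cycle lists in bulk gave smaller differences. Of 48 G2 and M phase genes 47 lay above 0 with a median log2 fold change of 0.50, against 0.02 over all genes, and in 39 the 24 h libraries were all above those of 0 h, a pattern found for 10.3% of all genes. Only Cenpf, a kinetochore protein, passed without the block, and 9 of the 48 with it. Cenpf had 10.2, 8.30 and 11.1 FPKM at 24 h, against 5.73, 4.45 and 5.23 FPKM at 0 h (log2 fold change 0.82 ± 0.24, limma adjusted p = 0.047, or 0.038 with the block), and leaving out any of the 6 libraries ended the call (adjusted p between 0.066 and 0.18). Ccnb2 had 37.59, 36.02 and 36.22 FPKM, against 19.28, 26.07 and 25.33 FPKM, with an adjusted p of 0.41 by limma, or 0.076 with the block. Of 32 S phase genes in bulk, 0 passed by limma with or without the block, against 1.64% of all genes without it. An unadjusted limma p under 0.05 was found for 1 higher and 1 lower, against 1118 of all 8307 genes in either direction. The median log2 fold change was −0.03. The groups were apart in 2 genes higher and 4 lower, against 10.3% and 7.02% of all genes. Mcm5 had 17.6, 23.3 and 24.4 FPKM at 24 h, against 21.2, 27.2 and 28.8 FPKM at 0 h, lower in each of the 3 same-numbered pairs (log2 fold change −0.23 ± 0.32, limma adjusted p = 0.85, or 0.15 with the block).

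The amino acid stress list, whose members are driven by the factor Atf4 when amino acids run short, fell most among the pathway lists in bulk. Of 15 genes 6 fell (Atf4, Asns, Psat1, Phgdh, Slc7a5 and Mthfd2), and 9 had groups apart in the lower direction, against 7.02% of all genes, with a median of −0.79 and 7 calls under the block. Asns, the asparagine synthetase, had 6.39, 11.4 and 11.9 FPKM at 24 h, against 19.9, 27.3 and 24.4 FPKM at 0 h, and fell by 1.23 ± 0.29 on the log2 scale (limma adjusted p = 0.0089, or 0.026 with the block). Without library 1 at 24 h its log2 fold change was −0.97 with an adjusted p of 0.18, and it passed in the other 5 fits. Atf4 had 61.8, 81.1 and 109.4 FPKM, against 109.7, 156.9 and 155.8 FPKM, and fell by 0.76 ± 0.15 (limma adjusted p = 0.00056, or 0.047 with the block). It too passed in 5 fits and not without library 1 at 24 h (adjusted p = 0.093). The other 4 passed in 1 to 4 of the 6 fits, and without library 1 at 24 h their adjusted p lay between 0.14 and 0.25. In the single cells Asns was at 6.11 CPM at 24 h, against 27.7 at 6 h and 19.8 at 0 h, and Atf4 at 57.5, against 109.6 and 95.6. The list held 4 genes with 50 CPM there, of which 1 was 2-fold lower than at 0 h (median −0.66).

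Bulk calls on the neutrophil list and on Pf4 had no counterpart in the single-cell library. Of the 12 neutrophil and precursor genes 10 fell in bulk with a median of −3.77, and Elane, the neutrophil elastase, had 0, 0.520 and 0.622 FPKM at 24 h, against 45.4, 40.5 and 40.6 FPKM at 0 h. It passed in all 6 fits without 1 library and with the block. In the single cells that list summed to 79.3 CPM at 24 h, against 67.2 at 6 h and 63.9 at 0 h, so the bulk 0 h cultures held transcripts that the 0 h single-cell library held hardly any of. The part of these transcripts in other bulk differences was not tested, and in bulk fewer cells of a type and less RNA per cell cannot be told apart. Pf4, a chemokine of platelets that these macrophages also expressed, rose in bulk with 851.1, 587.0 and 796.6 FPKM at 24 h, against 312.1, 454.9 and 357.3 FPKM at 0 h (log2 fold change 0.99 ± 0.26, limma adjusted p = 0.028, or 0.096 with the block). It passed in 2 of the 6 fits without 1 library, and not without library 1 or 3 at 24 h or library 1 or 3 at 0 h (adjusted p up to 0.18). The single-cell levels of Pf4 were close together, with 8129 CPM at 24 h, against 7841 at 6 h and 7694 at 0 h. Ier2 and Egr1, 2 immediate early genes, fell in bulk (limma adjusted p = 0.030 and 0.016, or 0.28 and 0.26 with the block), with library 2 at 0 h apart from the others at 141.4 and 231.2 FPKM. Without it their log2 fold changes were −0.30 and −0.61 (adjusted p = 0.75 and 0.62), and neither passed without library 1 or library 2 at 24 h, with adjusted p of 0.14 and 0.12 for Ier2 and 0.15 and 0.052 for Egr1. In the single cells Ier2 was at 26.4 CPM at 24 h, against 37.0 at 6 h and 64.1 at 0 h, and Egr1 at 0.699, against 5.15 and 17.3.

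Cell-to-cell variation at 24 h was read from the variance over the mean of UMIs per thinned barcode, which is near 1 where counting alone sets the spread. Of 2781 genes with a mean of at least 0.02 UMIs, 28 (1.01%) reached 1.5, against 26 of 2946 at 6 h and 30 of 2864 at 0 h. The MHC class II genes Cd74, H2-Aa and H2-Ab1 had the largest ratios. Cd74 was at 6.72, against 10.7 at 6 h and 12.2 at 0 h, H2-Aa at 6.18, against 4.51 and 9.15, and H2-Ab1 at 5.88, against 8.39 and 7.90. H2-DMb1 and H2-DMa, of the same list, were at 1.09 and 1.00 at 24 h. The lipoprotein Apoe reached 3.68, against 2.17 at 6 h and 3.72 at 0 h. Pf4 reached 3.89, the lysozyme Lyz2 2.90, the ferritin heavy chain Fth1 2.73 and the galectin Lgals3 1.99. Ratios of that size were not confined to macrophage genes. The predicted gene Gm42418 reached 3.28, and the ribosomal protein genes Rpl37a and Rpl41 reached 2.71 and 1.98. Sepp1 reached 1.82 at 24 h, against 1.15 at 6 h and 1.41 at 0 h, and Itm2b 1.63, against 1.249 and 1.47. The ratio can grow with the mean, and the mean of Sepp1 was 1.254 UMIs at 24 h, against 0.111 at 6 h and 0.333 at 0 h, so these ratios are not compared between the times.

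**Figure D4:**
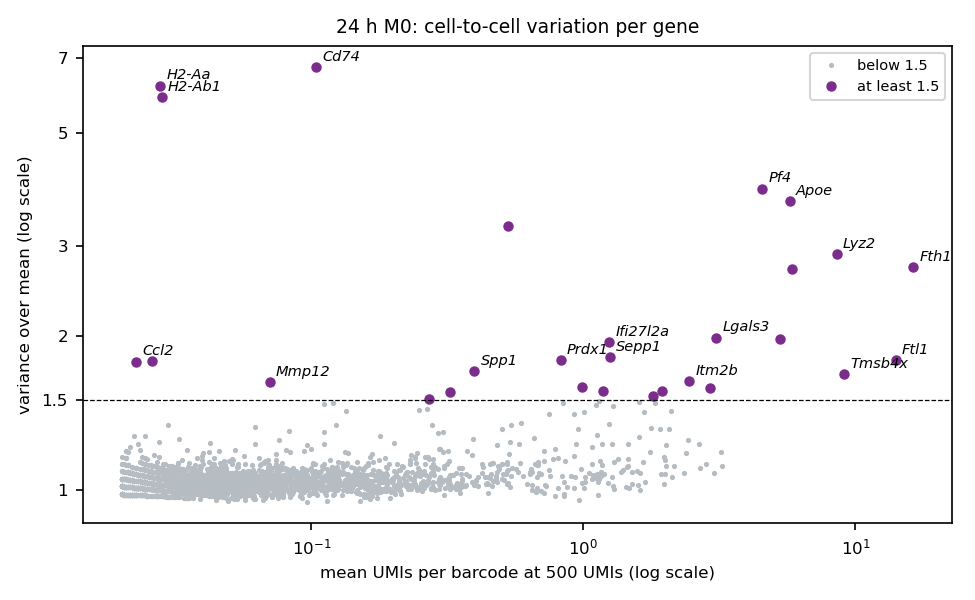
Variance over mean of UMIs per barcode, thinned to 500 UMIs, against the mean, 1 point per gene of the 24 h M0 library, both axes logarithmic, with a line at 1.5. Most genes lie near 1 and 28 of 2781 reach 1.5, led by Cd74 at 6.72, H2-Aa at 6.18 and H2-Ab1 at 5.88.

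For the abundant genes the spread ran over the whole library and not over a few barcodes. Apoe had a 10th percentile of 1 UMI, a median of 5 and a 90th percentile of 12 at 24 h, against 0, 2 and 5 at 6 h and 0, 3 and 10 at 0 h. Pf4 had 0, 3 and 10 in each of the 3 libraries. Sepp1 had a median of 1 and a 90th percentile of 3 UMIs, and 39.0% of thinned barcodes held none at 24 h, against 90.02% at 6 h and 74.8% at 0 h. Cd74 was the opposite case, with no UMI in 95.3% of barcodes and up to 20 in 1 barcode.

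**Figure D5:**
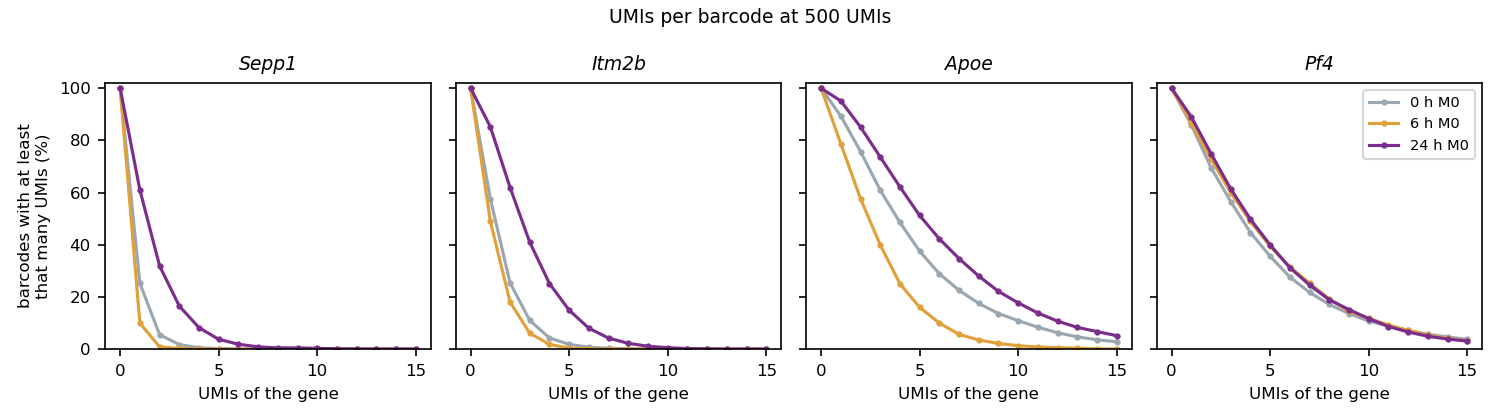
Percent of barcodes with at least the number of UMIs on the x axis, for Sepp1, Itm2b, Apoe and Pf4 after thinning to 500 UMIs, 1 line for each M0 library. The 24 h lines of Sepp1, Itm2b and Apoe lie above the others, with 39.0% of barcodes at 24 h lacking Sepp1, against 90.02% at 6 h and 74.8% at 0 h, while the Pf4 lines nearly overlie each other.

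Several of these transcripts varied together across barcodes. On log-transformed thinned UMIs of the 2727 barcodes, Pearson's r was 0.42 between Lyz2 and Apoe at 24 h, against 0.24 at 6 h and 0.35 at 0 h. It was 0.34 between Sepp1 and Apoe, against 0.09 and 0.19, and 0.33 between Sepp1 and Lyz2, against 0.05 and 0.19. Itm2b had an r of 0.28 with Sepp1, against 0.03 and 0.19. Apoe and Pf4, though both spread widely, had an r of 0.10 at 24 h, against 0.10 at 6 h and 0.15 at 0 h. Lyz2 and Tmsb10, an actin-binding thymosin, had an r of −0.22. All points share 1 library and 1 depth, and an r between genes of lower counts is held down by counting noise, so that the 6 h values of Sepp1 are not on an equal footing.

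MHC class II molecules display peptides to T cells and are the mark of antigen-presenting cells. At 24 h, 88 of 2727 barcodes (3.23%, 2.60 to 3.96) held UMIs of at least 3 of 8 MHC class II genes, against 1.59% at 6 h and 1.22% at 0 h. After thinning to 500 UMIs the shares were 0.733% at 24 h, against 0.654% and 0.645%. The 88 barcodes held 65.6% of all UMIs of the list and had a median depth of 2792.5 UMIs, against 1716 in the others, and 70.4% of barcodes held none. Cd74, the invariant chain, was at 3283 CPM in them, against 66.8 in the others. They also held the macrophage transcripts Csf1r at 617.0, against 740.5, and C1qa at 250.8, against 503.5. Of the dendritic cell markers, Cd209a was found in 5 and Flt3 in 3 of the 88, and Ccr7 and Zbtb46 were at 0 in the whole library.

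Leiden clustering of the 24 h library gave 4 clusters, described by their leading genes without a test. Cluster 0 (1041 barcodes, 38.2%) had a median of 1184 UMIs and, among genes with at least 20 UMIs in it, none more than 2.55-fold above the rest, led by Zfp219 and Acot2, and is left unnamed. Cluster 1 (797 barcodes, 29.2%) had a median of 2641 UMIs and was led by Mapk1ip1 with the interferon-stimulated genes Ifit3, Ifit1 and Rsad2 among its top 10, each held by 25 to 29 UMIs in the cluster. The 31 interferon-stimulated genes summed to 5854 CPM in it, against 4741 in the rest. That list summed to 5317 in cluster 0, 5162 in cluster 2 and 2791 in cluster 3. Other lists also differed in cluster 1. Core macrophage genes summed to 71302, against 53228 in the rest, and complement genes to 8675, against 5028. The MHC class II list was lower, at 325.6, against 717.9. Cluster 2 (568 barcodes, 20.8%) was led by the mitosis genes Prc1 and Cenpf and the histone gene Hist1h1b, with 7 of its top 10 genes on the G2 and M phase list. Cluster 3 (321 barcodes, 11.8%) was led by H2-Eb1, H2-Aa, H2-Ab1, Cd209a and Cd74, followed by the elastase Mmp12 and the fatty acid carrier Fabp4. Its MHC class II list summed to 2522 CPM, against 289.5 in the rest, its resident-like list to 6227, against 13256, and its lipid uptake and storage list to 10589, against 5579. Such sums can rest on few barcodes. In the whole library H2-Eb1 had UMIs in 35 of the 88 barcodes with at least 3 MHC class II genes and in 12 others. H2-Aa was found in 45 and 33 and Cd209a in 5 and 11, so most of the 321 barcodes held none of these genes. Cd74 was found more widely, in 81 and 210. A lower resolution of 0.3 gave 3 clusters and a resolution of 1 gave 7.

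Set among all M0 cells at equal depth, 64.4% of the 20 nearest neighbours of a 24 h cell came from the 24 h library, which held 25.3% of the cells. A further 28.2% came from 0 h, which held 51.9%, and 7.42% from 6 h, which held 22.7%. Without the genes of the cell cycle lists the share from the 24 h library was 64.2%. Cells at 6 h had 42.7% of their neighbours in their own library and 7.79% at 24 h, and those at 0 h had 65.0% in their own. Time and library cannot be told apart in these values.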

How the data were processed

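The study measured mouse bone marrow-derived macrophages by droplet single-cell RNA-seq (7 libraries) and bulk RNA-seq. The single-cell values are UMI counts that the authors made with Cell Ranger (version not given in the sources used here) on mm10 and deposited unnormalised, with barcodes already selected. The 24 h, 6 h and 0 h M0 libraries held 5725353, 6022816 and 7570554 counts. The bulk values were deposited by the authors as log10(FPKM + 1), from TopHat2 2.0.14, Cuffnorm 2.2.2 and mm10, for genes that passed their expression filter, and no depth comes with them. They were turned back to FPKM and fitted as log2(FPKM + 1), a scale that understates changes of low genes. The columns of the bulk table give group and number but count from 0, so that each was taken as a replicate of its group, and column 0 is called library 1. No column of per-sample values was left unmapped.

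Single-cell levels are sums over barcodes scaled to CPM, with 1 CPM added before ratios, and no test was made since there is 1 library per time. Barcodes were thinned at random to 500 UMIs for shares, variance over mean and neighbours. Clusters and neighbours used 2000 variable genes and 30 principal components, with 15 graph neighbours and resolution 0.6 for clusters (scanpy 1.11.5, leidenalg 0.10.2). Doublets: a caller marked 7 of 2727 barcodes (0.257%) and none was removed, a rate too low to take the caller as having worked. The bulk test used limma 3.58.1 (R 4.3.3) with all 145 libraries in 48 groups, a mean-variance trend and Benjamini-Hochberg adjustment over 8307 genes, two-sided. Deviations of same-numbered 24 h and 0 h libraries from their group means correlated at 0.56, 0.35 and 0.62 across 7579 genes, so the numbers were taken to pair the libraries. Tested on simulated data with the groups of the bulk comparison, 90 of 100 genes changed 2-fold and 99 of 100 changed 4-fold were called, with 15 unchanged genes called. The simulated spread was independent between libraries, without the pairing by number, and only genes above a minimum level at 0 h were changed. Recovery in paired libraries or in low genes was not tested. On simulated 24 h barcodes, 200 genes were made overdispersed and the others left at counting noise. Of the 165 whose expected ratio lay above the threshold, 161 were called, and 0 of those left at counting noise. Genes with a lower expected ratio were not scored, so these counts do not show how weaker overdispersion is found. Promoter windows are those of RefSeq.

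Genes were named by rules of rank: most UMIs (15), highest and lowest ratio (12 each), largest variance over mean (20), leading genes of clusters (10), the 6 largest ratios of each list and the 5 highest and lowest bulk changes. Genes outside these rules are said to be picked later, or belong to a count of 5 or fewer, a member count or a set named in full. The cells, lists and rules were chosen with earlier results of these data known. Chromatin data and libraries of cytokine-treated cells were not used here, other than in the spread of the bulk fit. The other software was Python 3.11.15 with scipy 1.17.1 and scikit-learn 1.9.0.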

Additional observations from a re-analysis of the deposited data

How the results depend on the processing

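The counts of single-cell genes depend on the minimum and the fold. Against 0 h, a minimum of 20 CPM gave 147 higher and 168 lower genes, a minimum of 10 UMIs in the 2 libraries 360 and 435, and a fold of 1.5 gave 308 and 347. Against 6 h the same settings gave 349 and 504, 750 and 938, and 419 and 642. Scaling to the median ratio, equal weight per barcode, leaving out barcodes under 1000 UMIs and the barcodes with no cell cycle UMI (added after seeing the data) kept each count within 1.5 times. Scaling to the median ratio moved the split of calls against 6 h to 212 higher and 239 lower. For single genes, 106 of 206 single-cell results were counted as moved when repeated and 100 as the same. Stable counts of genes therefore do not mean that the ratio of each gene was stable. In the bulk test, the fit of the 6 M0 libraries alone gave 1 higher and 20 lower genes, the replicate block 38 and 71, a pseudocount of 0.1 FPKM 37 and 77, and genes with a mean of at least 5 FPKM 49 and 76. Leaving out 1 library gave between 13 and 67 higher and between 31 and 128 lower genes. Beyond the results given with their blocked value in the report, refits of the named bulk genes left the outcome unchanged in 294 cases. Unchanged here means called in both fits or called in neither. The call was lost in 73 cases and gained in 1. Direction was kept wherever a fit called the gene, and changes of direction were not counted where neither fit did. Genes with a variance over mean past the threshold numbered 61 when thinned to 1000 UMIs and 70 at the lower ratio tried. The share of barcodes with mitosis transcripts at 24 h was 37.6% without thinning, 28.9% at 1000 UMIs and 14.1% at 3 UMIs. Barcodes of other cell types numbered 106 when 2 genes sufficed. Neighbours from the 24 h library made up 74.8% without thinning and 62.4% with 50 neighbours, and resolution 1 gave 7 clusters. The single-cell comparisons rest on 1 library per time, so the spread between cultures is unknown, and the counting intervals do not include it. Genes under 50 CPM could not be compared firmly at this depth.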
